A study of Mus musculus with 3 samples.

Results

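A group of 10 endothelial genes was followed in mouse skin wounds, namely *Pecam1*, *Cdh5*, *Cldn5*, *Esam*, *Kdr*, *Flt1*, *Plvap*, *Emcn*, *Egfl7* and *Vwf*. They were taken by gene symbol, and all 10 were found among the 32285 genes of the deposited matrices. The tissue was skin with a full-thickness excisional wound from C57BL/6J mice, collected on Day 3, Day 7 and Day 14 post injury, with 1 section for each day. Uninjured skin was not analysed here. Spatial transcriptomics was carried out on the Visium platform, in which a frozen section lies on a slide of barcoded spots and every captured transcript is counted once by its unique molecular identifier (UMI). A spot covers a small area that can hold several cells, so no value below belongs to a single endothelial cell.

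Endothelial cells form the inner lining of all blood vessels and are held together by junction proteins that set how tightly the vessel wall is sealed. After a skin injury, new capillaries sprout into the provisional matrix of the wound under the control of vascular endothelial growth factor (VEGF), and many of these vessels are pruned when the granulation tissue turns into scar. Pericytes are the cells that wrap around the capillary wall. Periostin, encoded by *Postn*, is a matrix protein of fibroblasts in granulation tissue.

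The genes are protein coding and lie at separate places in the genome. In the GENCODE M21 annotation of GRCm38, the junction genes are *Pecam1* at chr11:106654217-106750628 on the minus strand, *Cdh5* at chr8:104101625-104144511 on the plus strand, *Cldn5* at chr16:18776847-18778262 on the plus strand and *Esam* at chr9:37528078-37538319 on the plus strand. The VEGF receptor genes *Kdr*, at chr5:75932827-75978458, and *Flt1*, at chr5:147561604-147726011, are both on the minus strand. *Plvap* is at chr8:71497765-71511752 on the minus strand and *Emcn* at chr3:137341067-137432185 on the plus strand. *Egfl7* is at chr2:26580014-26593120 and *Vwf* at chr6:125546774-125686679, both on the plus strand.

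Promoters are shown for the members that had a window with a single start, and were not chosen by level. RefSeq promoter windows on GRCm38.p6, of 250 bases before and 50 bases after the transcription start, were found for 5 of the 10 genes, and the 4 with a single start are printed 5′ to 3′ along the gene. Capitals mark matches to the letters CAGGAA or CCGGAA on either strand, which ETS-family transcription factors, a family with known roles in endothelium, can bind.
Kdr, chr5:75978406-75978705, minus strand: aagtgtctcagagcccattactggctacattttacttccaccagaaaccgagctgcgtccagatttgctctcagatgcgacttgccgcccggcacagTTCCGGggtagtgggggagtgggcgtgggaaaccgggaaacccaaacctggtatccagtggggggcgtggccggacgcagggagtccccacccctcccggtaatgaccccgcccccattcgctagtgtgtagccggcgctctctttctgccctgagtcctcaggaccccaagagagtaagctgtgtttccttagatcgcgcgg
Flt1, chr5:147725962-147726261, minus strand: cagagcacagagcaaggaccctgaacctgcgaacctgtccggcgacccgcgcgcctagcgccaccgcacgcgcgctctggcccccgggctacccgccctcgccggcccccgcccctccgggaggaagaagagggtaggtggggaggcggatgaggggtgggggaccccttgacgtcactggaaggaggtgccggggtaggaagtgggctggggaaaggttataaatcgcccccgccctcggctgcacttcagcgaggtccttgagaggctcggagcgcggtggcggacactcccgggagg
Emcn, chr3:137340828-137341127, plus strand: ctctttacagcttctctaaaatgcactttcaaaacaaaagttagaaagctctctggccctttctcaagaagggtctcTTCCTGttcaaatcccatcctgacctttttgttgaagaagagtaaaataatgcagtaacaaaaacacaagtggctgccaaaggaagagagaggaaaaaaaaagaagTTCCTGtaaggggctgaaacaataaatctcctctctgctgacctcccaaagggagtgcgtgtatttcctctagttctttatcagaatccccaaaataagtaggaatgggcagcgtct
Cldn5, chr16:18776597-18776896, plus strand: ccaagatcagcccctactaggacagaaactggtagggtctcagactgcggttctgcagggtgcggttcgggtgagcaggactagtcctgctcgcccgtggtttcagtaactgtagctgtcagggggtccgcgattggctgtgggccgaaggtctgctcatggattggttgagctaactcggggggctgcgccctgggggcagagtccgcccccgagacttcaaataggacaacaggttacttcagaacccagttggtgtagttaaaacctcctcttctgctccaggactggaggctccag
The letters occurred in 2 of these 4 windows, 1 time in *Kdr* and 2 times in *Emcn*, and in neither *Flt1* nor *Cldn5*. For comparison, 41.4% of all 32851 promoter windows of the same length held them, so such letters are common. A match is a run of letters and not a shown binding site. A window without a match can still hold the shorter GGAA that both strings share, as that of *Flt1* does.

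Depth differed between the sections. The deposited positions mark 664, 549 and 697 spots as lying under tissue on Day 3, Day 7 and Day 14, with a median of 1513, 6687 and 4827 UMIs, and the study's notes describe the marked spots as a chosen region of interest. The marked spots held 1772259, 4442962 and 4611723 UMIs, and levels are given as CPM, the UMIs of a gene per 1000000 UMIs summed over the marked spots of a section. Intervals are exact 95% intervals and cover counting error only. With 1 section a day no difference between days was tested, and variation between animals, sections and slides is not measured by any interval. All slides share 1 set of barcodes, and 0 barcodes were marked as tissue on all of them. Each of the 10 genes was detected on each day, with 36 to 475 UMIs. Their sum came to 1212, 2900 and 1089 UMIs in the order of days.

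The endothelial genes stood at a similar summed level on Day 3 and Day 7 and at a much lower one on Day 14. The Day 3 section had 684 CPM (646 to 723). The Day 7 section had 653 CPM (629 to 677). The Day 14 section had 236 CPM (222 to 251). Day 7 over Day 3 gave a log2 ratio of -0.067 (-0.16 to 0.031), an interval that held 0. The Day 14 sum was 2.76-fold below that of Day 7 (log2 ratio -1.47, -1.57 to -1.37) and 2.90-fold below that of Day 3 (log2 ratio -1.53, -1.65 to -1.41). A section with fewer endothelial cells and one with less RNA of these genes per cell cannot be told apart from such sums. Nor can a section whose marked spots held more RNA of other tissue, because CPM is a share of all UMIs.

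Among the junction genes, Day 7 was the high day for 3 of the 4. *Cdh5*, encoding VE-cadherin, the adhesion protein of endothelial adherens junctions, was at 68.3, 94.1 and 25.2 CPM on Days 3, 7 and 14. *Cldn5*, a claudin that seals endothelial tight junctions, was at 41.8, 66.2 and 11.1 CPM. *Esam*, an adhesion molecule of endothelial tight junctions, was at 61.5, 87.8 and 22.3 CPM. These 3 genes shared the order Day 7, Day 3, Day 14. Set against Day 3, the Day 7 level had a log2 ratio of 0.46 (0.17 to 0.77) for *Cdh5*, 0.66 (0.29 to 1.05) for *Cldn5* and 0.51 (0.20 to 0.83) for *Esam*. *Pecam1*, encoding CD31, an adhesion molecule at endothelial cell contacts that leukocytes and platelets also carry, took another order, with 125, 95.7 and 43.8 CPM on Days 3, 7 and 14. Its Day 7 level was below that of Day 3, at -0.38 (-0.62 to -0.14). When each spot was given the same weight in place of each UMI, the Day 7 over Day 3 ratio turned to 0.021 for *Pecam1* and to -0.044 for *Esam*.

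The VEGF receptors differed from each other. *Kdr*, which encodes VEGFR2, the main signalling receptor for VEGF-A, was at 20.3, 28.6 and 8.46 CPM on Days 3, 7 and 14. *Flt1* encodes VEGFR1, which binds VEGF-A tightly and in its soluble form acts as a decoy, and was at 42.3, 19.4 and 16.5 CPM. *Kdr* on Day 7 thus had an estimate above Day 3, with a log2 ratio of 0.49 whose interval held 0 (-0.05 to 1.07), whereas *Flt1* was 2.19-fold lower on Day 7 than on Day 3, at -1.13 (-1.59 to -0.66). Between the later days *Kdr* was the lower one, 3.38-fold on Day 14 against Day 7, and *Flt1* had a log2 ratio of -0.23 (-0.70 to 0.23), an interval that held 0. The difference between the receptors was not tested. Both rest on few UMIs, 36 to 127 for *Kdr* and 75 to 86 for *Flt1* in a section.

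Both surface proteins of small vessels had a lower estimate on each later day. *Plvap*, a component of the diaphragms of fenestrae and caveolae, was at 128, 83.1 and 41.2 CPM on Days 3, 7 and 14. *Emcn*, the sialomucin endomucin of capillaries and veins, was at 43.4, 33.5 and 8.02 CPM. On Day 7 *Plvap* was 1.54-fold below its Day 3 level (log2 ratio -0.62, -0.86 to -0.37), and the *Emcn* ratio of -0.37 (-0.78 to 0.04) held 0. On Day 14 *Emcn* was 4.18-fold and *Plvap* 2.02-fold below Day 7. With spots weighted equally the *Plvap* ratio of Day 14 over Day 7 was -0.25, against -1.01 by pooled CPM.

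The secreted products had unlike patterns. *Egfl7*, an endothelial matrix protein tied to vessel tube formation, was at 124, 107 and 33.2 CPM on Days 3, 7 and 14. *Vwf*, encoding von Willebrand factor, which endothelial cells and megakaryocytes store and which tethers platelets, was at 29.9, 37.6 and 26.5 CPM. *Egfl7* was 3.22-fold lower on Day 14 than on Day 7. *Vwf* had the smallest range of log2 levels over the 3 days of the 10 members, although *Flt1* had the smaller ratio between Day 7 and Day 14 and *Egfl7* between Day 3 and Day 7. Its Day 14 level was 1.42-fold below Day 7 (log2 ratio -0.51, -0.86 to -0.16), and against Day 3 the log2 ratio was -0.18 (-0.65 to 0.32). The platelet list of 6 genes summed to 530, 127 and 60.5 CPM in the same order of days, most of it from *Pf4*, which is also made by some macrophages, at 508, 114 and 40.8 CPM. *Gp1bb*, at 6.21, 6.08 and 10.6 CPM, and *Itga2b*, at 1.69, 6.98 and 7.16 CPM, did not fall with that sum. They rest on 11, 27 and 49 UMIs and on 3, 31 and 33 UMIs. *Gp1ba* had 0 UMIs in each section, and *Ppbp* and *Gp9* had 0 on Day 7. The part of platelets in the *Vwf* and *Pecam1* values was not tested.

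**Figure D1:**
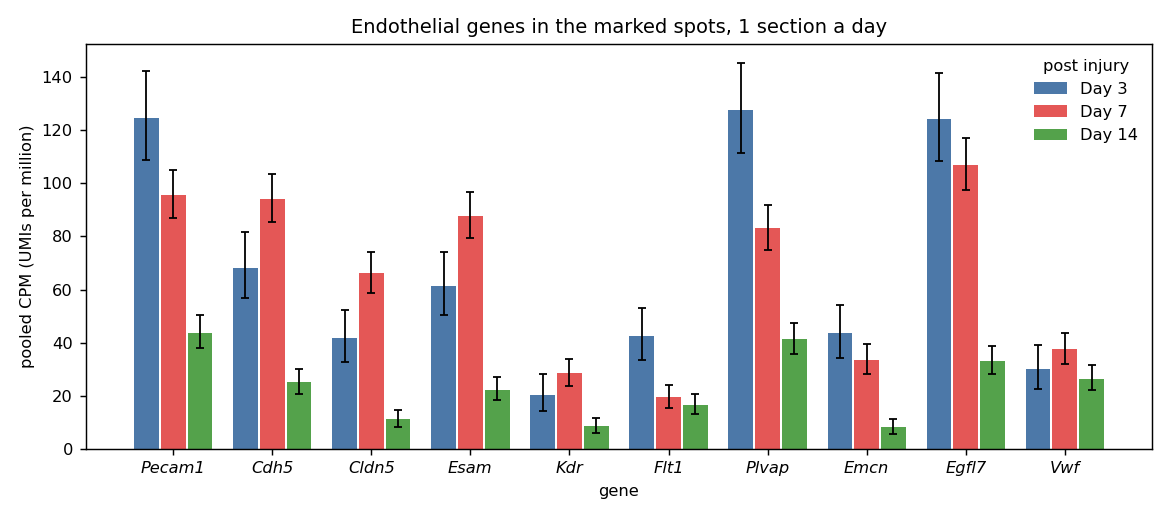
Pooled CPM of each endothelial gene (UMIs per 1000000 UMIs of the marked spots) on Day 3, Day 7 and Day 14, as bars with exact Poisson 95% intervals for counting error, from 1 section a day. Day 14 is the lowest bar for all 10 genes by pooled CPM, while Day 3 is the highest for 5 and Day 7 for 5.

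By pooled CPM, Day 14 was the lowest day for all 10 genes, Day 3 was the highest for *Pecam1*, *Flt1*, *Plvap*, *Emcn* and *Egfl7*, and Day 7 for *Cdh5*, *Cldn5*, *Esam*, *Kdr* and *Vwf*. For *Kdr*, *Vwf*, *Emcn* and *Egfl7* the neighbours Day 3 and Day 7 were closer than counting error, and for *Flt1* Day 7 and Day 14 were. At least 2-fold lower on Day 14 than on Day 7 were 8 of the 10 genes, all but *Flt1* and *Vwf*. The same fold in that direction was reached by 7.34% of the 11746 genes with at least 50 UMIs over both sections. Day 14 against Day 3 gave 9 of 10, all but *Vwf*, beside 6.83% of 10955 genes. None of the members was at least 2-fold higher on Day 14 in either comparison (0 of 10), which 10.9% of genes were against Day 7 and 14.4% against Day 3. For Day 7 over Day 3, 1 member was at least 2-fold lower, *Flt1*, beside 6.49% of 10541 genes, and 0 were higher, beside 8.04%. At 1.5-fold these counts were 2 lower, beside 15.5%, and 1 higher, beside 19.5%.

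The members lay apart from the middle of all genes in both comparisons with Day 14. Against Day 7 the median member had a Day 14 log2 ratio of -1.72 and the median counted gene 0.13. Against Day 3 these medians were -1.49 and 0.18. Day 7 set against Day 3 gave medians of 0.057 for the members and 0.040 for all counted genes. The most reduced member from Day 7 to Day 14 was *Cldn5*, 5.98-fold lower with a log2 ratio of -2.58 (-3.04 to -2.15), and 0.417% of counted genes had a lower ratio. By interval, 9 of the 10 genes lay below 0 in each comparison with Day 14, and 1 held 0, *Flt1* against Day 7 and *Vwf* against Day 3. Between Day 3 and Day 7, 3 intervals lay above 0, 3 below and 4 held 0. The share of all genes with such intervals was not computed for the pairs of days, so these interval counts are not read as particular to the members. With spots weighted equally, 5 rather than 9 genes were at least 2-fold lower on Day 14 than on Day 3.

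**Figure D2:**
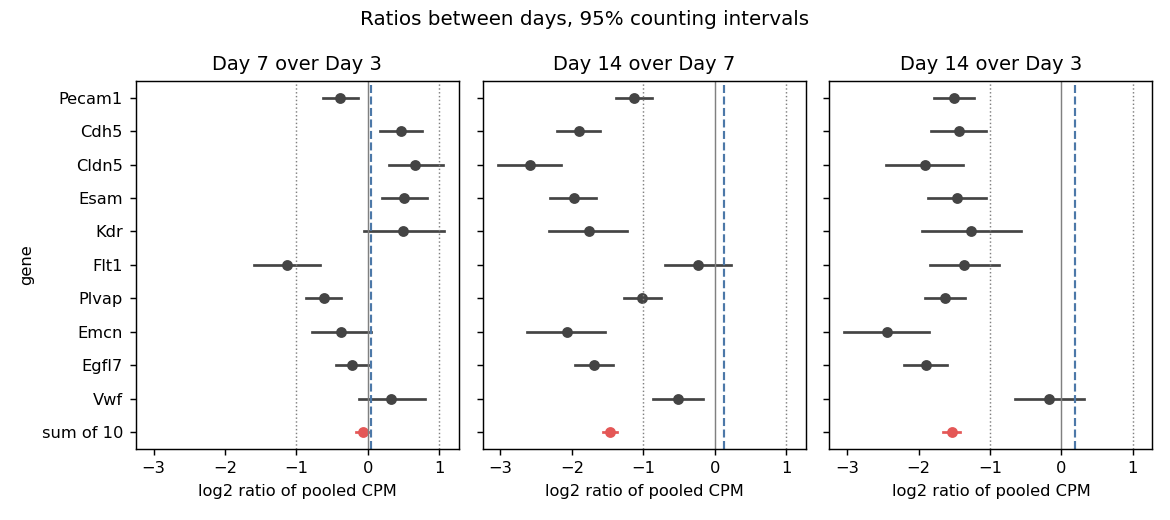
Log2 ratio of pooled CPM between each pair of days for the 10 genes (black) and their sum (red), with exact 95% counting intervals as bars. The dashed line is the median of all counted genes and the dotted lines mark 2-fold. Values scatter on both sides of 0 for Day 7 over Day 3, from -1.13 to 0.66, and lie to the left of 0 in both comparisons with Day 14.

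The make-up of the endothelial sum differed between days. *Vwf* took 4.37% of the UMIs of the 10 genes on Day 3 (3.29% to 5.68%) and 5.76% on Day 7 (4.94% to 6.67%). On Day 14 its share was 11.2% (9.39% to 13.2%), above both intervals. *Cldn5* took 6.11%, 10.1% and 4.68%, so its share was highest on Day 7. *Flt1* went the other way, with 6.19%, 2.97% and 6.98%. *Pecam1* and *Plvap* were also lowest on Day 7, at 14.7% and 12.7%, against 18.2% and 18.6% on Day 3 and 18.5% and 17.4% on Day 14. No member took more than 18.6% of the sum, and leaving out any 1 of them moved the log2 ratio of Day 14 over Day 7 by less than its counting interval.

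**Figure D3:**
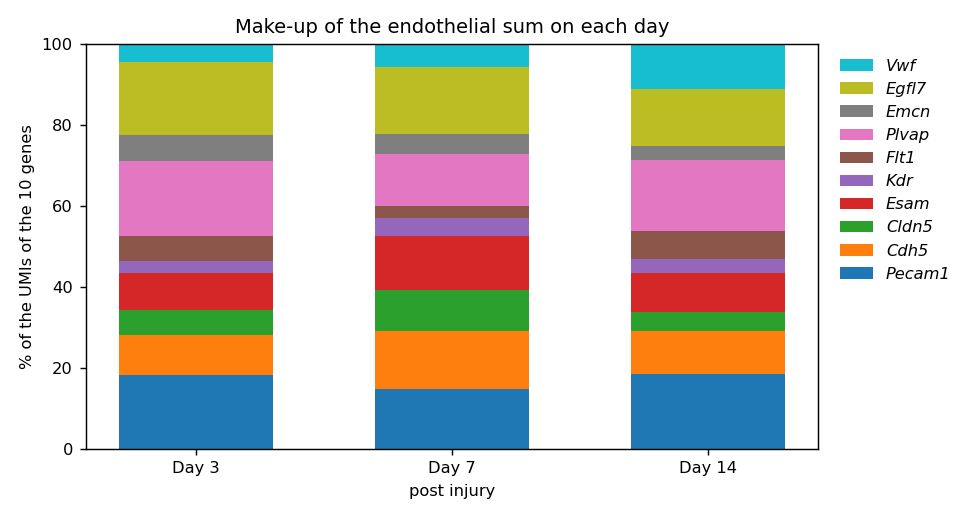
Share of the UMIs of the 10 endothelial genes that each gene took in the marked spots of Day 3, Day 7 and Day 14, as stacked bars in percent. The *Vwf* share is widest on Day 14, at 11.2%, and the *Cldn5* share on Day 7, at 10.1%.

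A further 20 genes known from endothelium, chosen beside the members, had the same lowest day as a sum. They stood at 1376, 1136 and 644 CPM on Days 3, 7 and 14. The largest parts of this sum were *Ly6c1*, at 420, 243 and 213 CPM, and *Cd34*, at 301, 154 and 99.7 CPM. Neither of these was at least 2-fold lower on Day 14 than on Day 7. What cells other than endothelium added to the sum was not tested. From Day 7 to Day 14, 13 of the 19 with enough UMIs were at least 2-fold lower and 0 higher, beside 7.34% and 10.9% of all counted genes. Their median log2 ratio was -1.26. *Cd93*, a receptor of sprouting endothelium, was at 165, 122 and 34.9 CPM, and *Robo4*, a receptor that stabilises vessels, at 13.5, 25.7 and 5.85 CPM. *Tspan7*, a membrane protein that endothelium shares with other cells, went against the list, with 32.9 CPM on Day 7 and 50.1 CPM on Day 14. For Day 7 over Day 3, 1 of the 20 was at least 2-fold higher, beside 8.04% of all counted genes. It was *Sox18*, a transcription factor of vessel and lymphatic development, from 26.5 to 65.5 CPM.

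The ligands of vessel growth were lowest as a sum on Day 14. The list of 12 angiogenic ligands summed to 855, 511 and 244 CPM on Days 3, 7 and 14. Its largest parts on Day 3 and Day 7 were *Cxcl12*, at 411, 140 and 69.6 CPM, and *Angptl4*, at 104, 129 and 21.9 CPM. *Cxcl12* gave 729 of 1515 list UMIs on Day 3, and *Angptl4* 571 of 2272 on Day 7. From Day 7 to Day 14, 6 of 11 counted genes were at least 2-fold lower, beside 7.34% of all counted genes. *Vegfa*, the ligand of both VEGF receptors, was at 47.4, 55.8 and 41.8 CPM, and its Day 14 over Day 7 ratio was -0.42 (-0.69 to -0.14). *Apln*, a peptide made by sprouting tip cells, was at 96.5, 18.0 and 3.69 CPM, whereas its receptor gene *Aplnr* was at 37.8, 104 and 12.1 CPM. *Angpt2*, a ligand that loosens vessels for remodelling, was at 16.9, 14.2 and 2.17 CPM. Among 11 counted tip, artery and vein genes, 5 were at least 2-fold lower on Day 14 than on Day 7 and 0 were higher. The shares of all counted genes were 7.34% and 10.9%. *Efnb2*, encoding the arterial ligand ephrin-B2, which epithelium and hair follicles make too, was at 80.7, 67.5 and 133 CPM.

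Pericyte genes followed the days differently from the endothelial genes. The 8 pericyte genes summed to 409, 609 and 343 CPM on Days 3, 7 and 14. At least 2-fold lower on Day 14 than on Day 7 were 4 of the 8 genes, beside 7.34% of all counted genes. *Pdgfrb*, the receptor through which endothelium recruits pericytes, was at 71.7, 170 and 62.7 CPM. On Day 7 *Pdgfrb* gave 755 of the 2705 UMIs of the list and *Rgs5*, the pericyte marker of the study, gave 919. *Rgs5* was at 111, 207 and 67.9 CPM on Days 3, 7 and 14. *Ndufa4l2*, with 194 of 724 list UMIs on Day 3, went against the list, at 109, 48.8 and 64.8 CPM. Per pericyte UMI the Day 3 section held 1.67 UMIs of the 10 endothelial genes (1.53 to 1.84), the Day 7 section 1.07 (1.02 to 1.13) and the Day 14 section 0.688 (0.637 to 0.744). The 3 intervals did not overlap. These ratios depend on the genes in the list, and what cells other than pericytes added to it was not tested. The lymphatic list was at 256, 325 and 215 CPM, most of it on the later days from *Ccl21a*, a chemokine of lymphatic vessels, at 68.8, 201 and 133 CPM. That symbol names 2 entries of the matrices, which were summed and may share reads. The list genes did not share 1 order of days. *Flt4*, at 5.08, 18.0 and 5.42 CPM, and *Mmrn1*, at 9.59, 16.4 and 14.5 CPM, had their highest estimate on Day 7 too. *Pdpn*, at 131, 70.0 and 47.9 CPM, and *Lyve1*, a hyaluronan receptor that macrophages also carry, at 24.3, 3.60 and 2.82 CPM, were highest on Day 3. *Reln*, at 12.4, 12.2 and 9.32 CPM, and the lymphatic regulator *Prox1*, at 5.08, 4.05 and 1.73 CPM, had close estimates on Day 3 and Day 7. *Prox1* rests on 9, 18 and 8 UMIs.

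Other cell types also moved between the sections. The macrophage list of 10 genes summed to 4574, 2965 and 1206 CPM on Day 3, Day 7 and Day 14. At least 2-fold lower on Day 14 than on Day 7 were 8 of 10 genes, beside 7.34% of all counted genes. Per macrophage UMI there were 0.150, 0.220 and 0.196 endothelial UMIs. The granulation tissue list was at 1617, 9494 and 1954 CPM and the matrix fibroblast list at 51103, 71452 and 37300 CPM. The fat list was at 10042, 9138.5 and 3919 CPM and the vascular smooth muscle list at 214, 711 and 319 CPM. From Day 7 to Day 14, 10 of 10, 5 of 10, 8 of 10 and 2 of 5 of their counted genes were at least 2-fold lower. Per matrix fibroblast UMI there were 0.0134, 0.00914 and 0.00633 endothelial UMIs. The erythrocyte list was at 4453, 401 and 1947 CPM, the epidermis list at 9149, 4653 and 11598 CPM and the skeletal muscle list at 37024, 48249 and 54798 CPM. Their part in the endothelial levels was not tested. Without haemoglobin, mitochondrial and muscle genes in the total, the log2 ratio of the endothelial sum between Day 14 and Day 7 was -1.42.

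Within a section the endothelial UMIs were uneven between spots. After thinning every spot to 1000 UMIs, 36.9% of 426 spots on Day 3 (32.3% to 41.6%), 45.0% of 525 on Day 7 (40.6% to 49.3%) and 20.5% of 679 on Day 14 (17.5% to 23.7%) had at least 1 of the 10 genes, and 238, 24 and 18 shallower spots were left out. Unthinned shares were 45.3%, 86.2% and 66.4%. In thinned spots among the top 20% by the epidermis list, whose keratinocytes should lack these genes but which can include dermis, the share was 32.9%, 43.8% and 15.4%, where the median spot held 6836, 6673 and 9320 UMIs before thinning, while it held 2373, 7128 and 4948 among all thinned spots. The share over all spots lay inside the interval of the epidermis-rich spots on each day (23.1% to 44.0%, 34.1% to 53.8% and 9.82% to 22.6%), so it is not read as above background. On Day 3, 20% of muscle-rich spots (12.1% to 30.1%) and 44.7% of pericyte-rich spots (33.9% to 55.9%) had at least 1 of the genes, and these intervals did not overlap. The order of Day 3 and Day 7 by share went against that by CPM and is not read.

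The fullest spots carried more of the sum on the early days. Among spots with at least 500 UMIs, the 10% of spots richest in endothelial UMIs held 58.0%, 38.6% and 35.2% of them in the order of days. Spots were ranked here by raw UMIs, and the part of spot depth in these shares was not tested. The 10 marked spots with the most endothelial UMIs held 285, 405 and 88 of them. Without those 10 spots, a setting chosen after the values were seen, the sum was 547, 588 and 224 CPM, so that the estimate for Day 7 was above that for Day 3, with overlapping intervals (566 to 612 and 513 to 584).

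**Figure D4:**
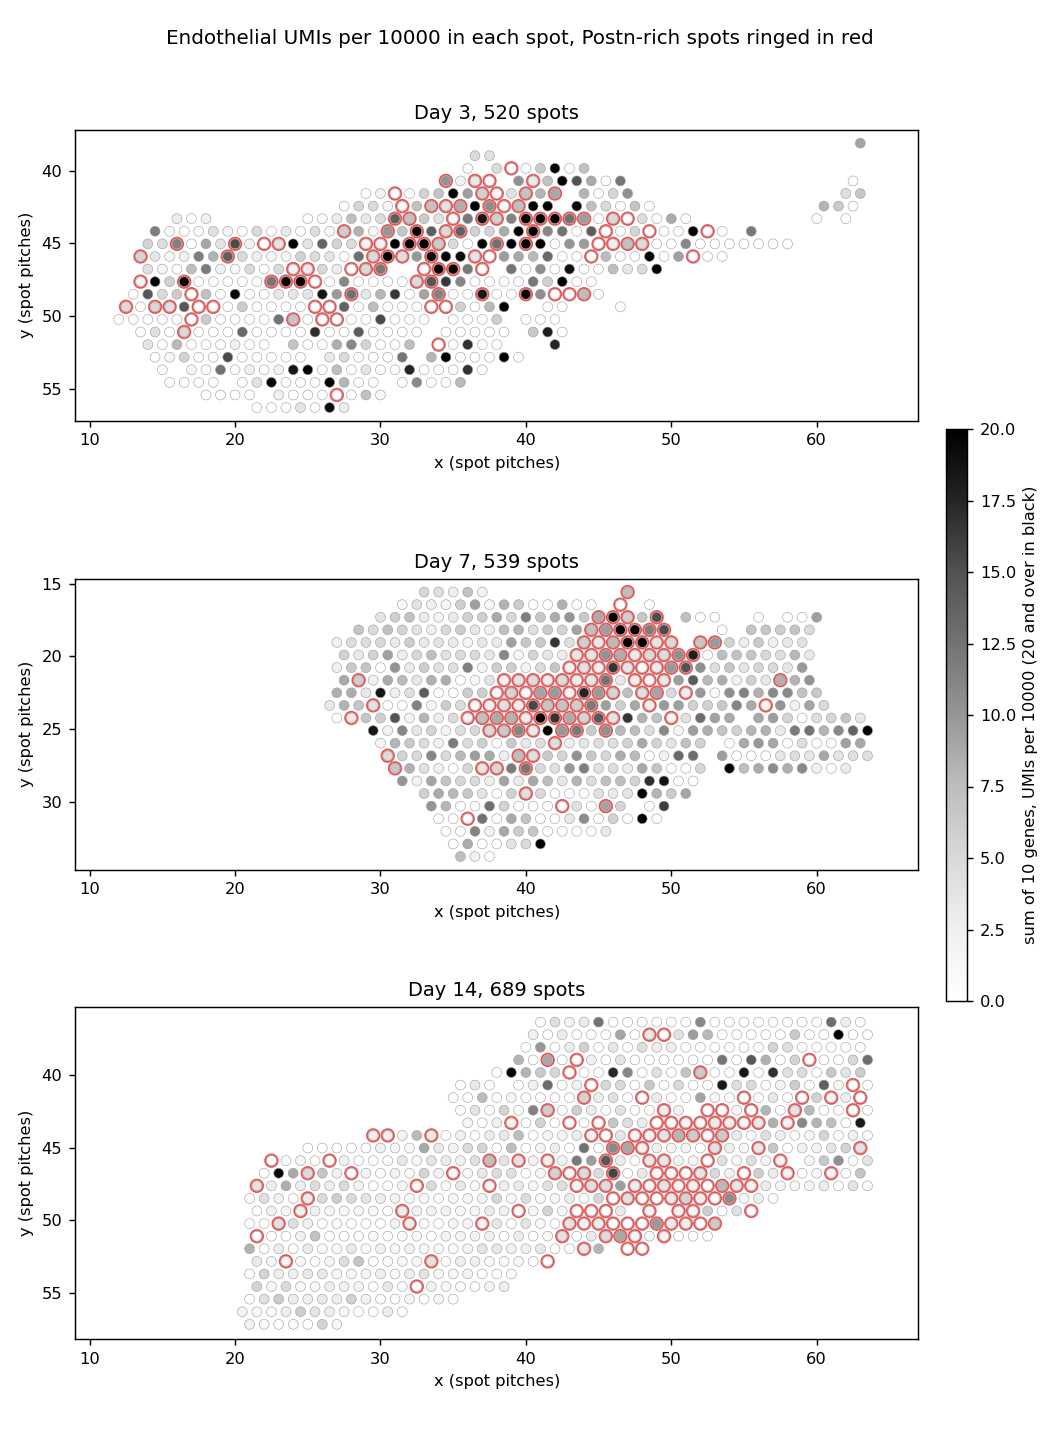
Marked spots with at least 500 UMIs of the Day 3, Day 7 and Day 14 sections, at their place on the slide in spot pitches, shaded by the summed UMIs of the 10 endothelial genes per 10000 UMIs of the spot. Red rings mark the 20% of spots with the most *Postn* in each section, of which 90 of 108 on Day 7 lie in the largest of 15 patches, and dark spots occur inside and outside the rings on each day.

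Spot by spot the 10 genes went together only loosely. Over the 45 pairs of members, the median Pearson r of log1p UMIs per 10000 was 0.149, 0.0856 and 0.0235 over the 520, 539 and 689 spots of the sections, and 44, 42 and 33 pairs had a value above 0. The summed junction genes against the summed other members gave 0.350, 0.196 and 0.149. Spots of a section share depth and neighbours, and the endothelial sum itself correlated with log depth at 0.306, 0.301 and 0.121. Among 2972 genes with at least 100 UMIs in each section, the genes outside the group whose pattern was most like the sum were *Vim*, *Sparc*, *Igfbp7*, *Tmsb10*, *Col4a1*, *Col1a2*, *Ifitm3*, *Col6a1*, *Col18a1* and *Col1a1*. Their mean r over the 3 sections ran from 0.261 down to 0.214, which is weak in sparse counts.

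On Day 7 the endothelial genes had a moderately higher summed level where *Postn* was high. *Postn*-rich spots were the 108 of 539 spots with the most *Postn* UMIs per 10000, from 39.8 in the last spot inside to 39.6 in the first outside, and 90 of them (83.3%) lay in the largest of 15 patches. The 10 genes summed to 762 CPM in *Postn*-rich spots (719 to 806) and 595 CPM in the other 431 spots (567 to 623), a log2 ratio of 0.36 (0.25 to 0.47), or 1.28-fold. The spots differed in depth, with a median of 13463.5 UMIs against 5497. At or above the median depth of the section the ratio was 0.34 (0.23 to 0.46), and below it 0.44 (0.0070 to 0.85) with 18 *Postn*-rich spots, a split chosen after the first value was seen. When spots were ranked by *Postn* after thinning, the ratio was 0.22 (0.11 to 0.33).

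Part of the group had a higher level there by its own interval. The interval lay above 0 for 5 of the 10 genes, beside 15.9% of 9421 genes, and below 0 for 0, beside 17.4%, and none was at least 2-fold higher (0 of 10, beside 1.63%). *Vwf* had the highest ratio, with 51.6 CPM in *Postn*-rich spots and 29.7 CPM in the others, a log2 ratio of 0.80 (0.34 to 1.25). *Plvap* was at 108 and 69.5 CPM, a ratio of 0.64 (0.34 to 0.94). *Cldn5* was at 84.6 and 56.4 CPM, *Egfl7* at 136 and 91.7 CPM and *Cdh5* at 112 and 84.7 CPM. For the other 5 genes the interval held 0. *Pecam1* was at 92.3 and 97.5 CPM with a ratio of -0.079 (-0.38 to 0.22), and *Esam* at 89.7 and 86.8 CPM. Among the VEGF receptors *Flt1* had a ratio of -0.47 (-1.21 to 0.23) and *Kdr* of 0.23 (-0.32 to 0.76), and for *Emcn* it was 0.45 (-0.04 to 0.94). The pericyte list, at 626 against 600 CPM, gave 0.06 (-0.05 to 0.18).

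By distance, the pooled level was highest in the *Postn*-rich spots and lowest farthest from them, with similar estimates over 1 to 5 pitches. The sum was 762 CPM in the *Postn*-rich spots, 656 CPM (603 to 713) in the 118 spots 1 pitch away, 582 CPM in 110 spots at over 1 to 2 pitches, 585 CPM in 165 spots at over 2 to 5 pitches and 483 CPM (406 to 569) in 38 spots farther out. The junction genes ran from 378 to 264 CPM between the ends, the surface genes from 149 to 61.6 CPM and the secreted ones from 187 to 95.8 CPM, while the VEGF receptors stood at 47.1 and 61.6 CPM with overlapping intervals. The last ring holds 141 UMIs of the 10 genes. The median spot was not graded, at 5.41, 5.68, 5.25, 5.72 and 4.16 endothelial UMIs per 10000 from the *Postn*-rich spots outward. Tissue changed over the same distance, with the skeletal muscle list at 25299 CPM in *Postn*-rich spots and 52010 to 66503 CPM farther out, the macrophage list at 3882 CPM and 1893 to 3235 CPM, and the epidermis list at 2424 CPM and 4161 to 9118 CPM. Without the muscle-rich or the epidermis-rich spots among the others, the ratio of *Postn*-rich to other spots was 0.34 and 0.31. The part of macrophages was not tested.

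**Figure D5:**
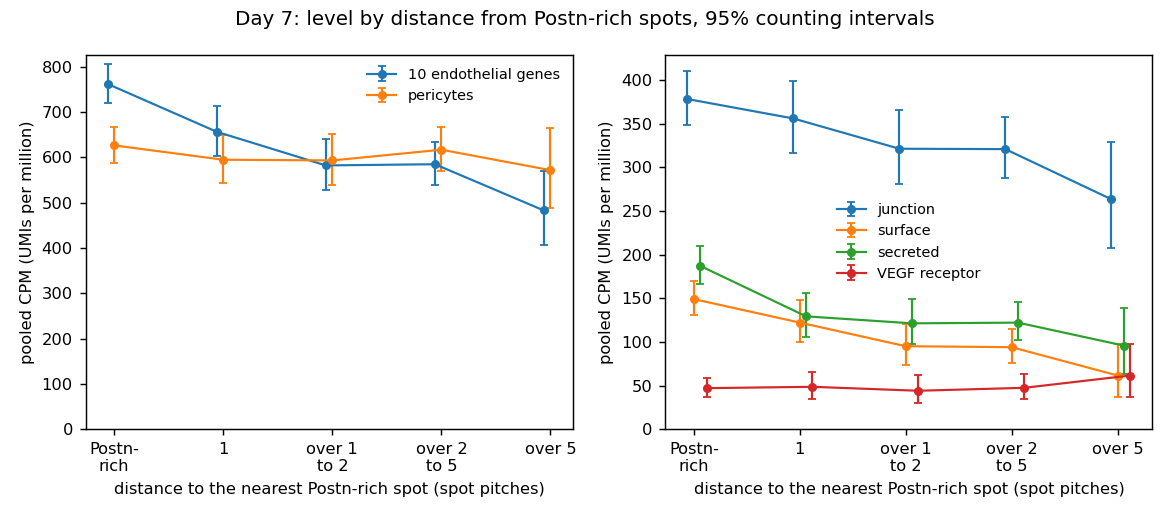
Day 7 pooled CPM (UMIs per 1000000 UMIs) by distance to the nearest *Postn*-rich spot in spot pitches, for the 10 endothelial genes and the pericyte list (left) and for the 4 role groups of the members (right), with exact Poisson 95% intervals for counting error. The endothelial sum goes from 762 CPM in *Postn*-rich spots to 483 CPM beyond 5 pitches, and the intervals of the VEGF receptors overlap across the distances.

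The typical spot differed little, and the means differed more than the medians. The median was 5.41 endothelial UMIs per 10000 in *Postn*-rich spots and 5.39 in the others, whereas the means were 7.42 and 5.80. Of the 54 spots richest in the 10 genes on Day 7, 21 were *Postn*-rich, or 38.9% (25.9% to 53.1%), and *Postn*-rich spots were 20% of all spots.

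The same rule was applied to the other sections. On Day 3, with 104 *Postn*-rich spots and a lower cut of 3.71 *Postn* UMIs per 10000, the sum was 999 CPM against 577 CPM, a log2 ratio of 0.79 (0.62 to 0.96). *Postn* was sparse there, with 346 of 520 spots at 0 UMIs of it and a median of 2415 UMIs of all genes in the *Postn*-rich spots, so that single UMIs decide the ranking, and these spots fell into 27 patches. On this ranking, 6 of 10 intervals lay above 0, beside 17.5% of 5636 genes, and *Plvap*, *Cldn5* and *Vwf* were at least 2-fold higher, beside 3.69%. On Day 14 the sum was 265 CPM in 138 *Postn*-rich spots and 230 CPM elsewhere, at 0.20 (-0.016 to 0.42), and 1 interval, that of *Plvap*, lay above 0, beside 8.98% of 10028 genes. None was at least 2-fold higher (0 of 10, beside 2.59%), and *Emcn*, with 2 and 35 UMIs, was at least 2-fold lower by its estimate, beside 2.3%, with an interval that held 0 (-5.05 to 0.016). *Plvap* was thus above 0 in each section, at 1.25, 0.64 and 0.55 in the order of days. The difference between days in this contrast was not tested.

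Other parts of the tissue were compared by ranking spots on marker lists. In the 20% of spots richest in pericyte genes the endothelial sum was higher than in the other spots of each section. The log2 ratio was 0.45 (0.25 to 0.65) in the Day 3 section, 0.68 (0.56 to 0.81) in the Day 7 section and 0.29 (0.051 to 0.52) in the Day 14 section. In epidermis-rich spots it was lower in each section, at -0.68, -0.19 and -0.50, and the 3 intervals lay below 0. Muscle-rich spots had the lowest ratio of these lists in the Day 3 section, at -1.28 (-1.71 to -0.88), and stood at -0.36 (-0.61 to -0.11) in the Day 7 and 0.23 (-0.071 to 0.51) in the Day 14 section. On Day 3 that is 299 CPM in muscle-rich spots against 727 CPM in the others.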

How the data were processed

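Visium gene expression was analysed in 1 skin wound section for each of Day 3, Day 7 and Day 14. The authors converted reads to raw UMI counts per gene and spot, and the deposited counts carry no normalization. The submitters' processing notes name Space Ranger 1.3.0 and the build mm10, and the annotation release is not given in the sources used here. Groups follow the day given for each sample. The genes and lists were chosen with earlier results of these data known.

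UMIs were summed over marked spots and divided by all UMIs of these spots (CPM). Sums carry exact Poisson, ratios exact conditional binomial and shares Clopper-Pearson 95% intervals. With 1 section a day no test was made, and a gene was called at 2-fold among genes with at least 50 UMIs over both sections. *Postn*-rich spots were the top 20% by *Postn* UMIs per 10000 among marked spots with at least 500 UMIs, and the list-rich spots were taken likewise. Thinning drew 1000 UMIs a spot without replacement (seed 1). Named genes were the 10 members, genes of the fixed lists with at least 50 UMIs over 2 sections, *Postn*, and the 10 genes most like the sum across spots. The lymphatic genes other than *Ccl21a* and the platelet genes other than *Pf4* were named after their values were seen.

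Marker lists covered other endothelial genes, angiogenic ligands, tip, artery and vein genes, lymphatic endothelium, pericytes, vascular smooth muscle, macrophages, neutrophils, platelets, erythrocytes, matrix fibroblasts, granulation tissue, epidermis, skeletal muscle and fat. Positions were matched by identifier for 32158 of 32285 genes. Doublets were not called, since a spot can cover several cells. The study's cell-type deconvolution was not used here. The intervals were computed on simulated counts of 11730 genes for Day 14 over Day 7. They covered the simulated ratio in 95.7% of genes without a change, 97% of those made 2-fold higher and 96.9% of those made 2-fold lower. The counts were drawn from the Poisson model that the intervals assume, so this checks the arithmetic only. Spread between spots, sections and animals was not simulated.

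Alternatives were the mean of spot CPM, TMM factors (edgeR 4.0.16), size factors (DESeq2 1.42.0), another total, other spot sets, background subtraction, other folds and gene minimums, each member left out, and other definitions of *Postn*-rich spots. Python 3.11.15, NumPy 2.4.6, SciPy 1.17.1, pandas 2.3.3, matplotlib 3.10.9 and R 4.3.3 were used.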

Additional observations from a re-analysis of the deposited data

Results flagged for a closer look

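Endothelial UMIs also lay in spots outside the marked area, which the comparisons of days leave out. There were 636 such UMIs of the 10 genes on Day 3, 3090 on Day 7 and 1063 on Day 14, against 1212, 2900 and 1089 in marked spots. In CPM the outside level was 0.546 times that of marked spots on Day 3, 0.733 times on Day 7 and 0.955 times on Day 14. *Plvap* was the member with the lowest ratio on Day 3 and Day 7, at 0.276 and 0.505, and was at 0.932 on Day 14. The skeletal muscle list in these outside spots was at 78245, 104776 and 114082 CPM, against 37024, 48249 and 54798 CPM in marked spots. The fat list was at 14170, 20914.5 and 6230 CPM, against 10042, 9138.5 and 3919 CPM. The matrix fibroblast list was lower there, at 15904, 29524 and 24068 CPM, against 51103, 71452 and 37300 CPM. The part of these tissues in the outside endothelial levels was not tested.

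In the 20% of spots richest in matrix fibroblast genes, the endothelial sum was lower than elsewhere on Day 7, with a log2 ratio of -0.18 (-0.30 to -0.07), and higher on Day 14, at 0.48 (0.28 to 0.68). On Day 3 it was 0.08 (-0.10 to 0.25). These spots had a median of 13295.5 UMIs on Day 7 and 5681 on Day 14, and the difference between the days was not tested.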

How the results depend on the processing

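Day 14 stayed below Day 7 and Day 3 in the endothelial sum under every alternative run. The Day 14 over Day 7 log2 ratio of -1.47 moved outside its counting interval to -1.16 with the mean of spot CPM, -1.59 with TMM factors, -1.59 with DESeq2 size factors and -1.25 with all spots of the slide. For Day 14 over Day 3, at -1.53, the same settings gave -1.08, -1.69, -1.70 and -1.20, and leaving out the 10 fullest spots gave -1.29. The Day 7 over Day 3 ratio of -0.067, whose interval held 0, became 0.076 with the mean of spot CPM, 0.048 with all spots, 0.10 without the 10 fullest spots and 0.034 without *Plvap*. The count of 1 member at least 2-fold lower on Day 7 than on Day 3 became 0 with the mean of spot CPM, 0 with all spots, 0 without the 10 fullest spots and 2 at 1.5-fold, and the count of 0 higher became 1 with the mean of spot CPM, 1 with all spots and 1 at 1.5-fold. With the mean of spot CPM, 5 in place of 9 members were at least 2-fold lower on Day 14 than on Day 3, the Day 7 over Day 3 ratio of *Pecam1* reversed to 0.021 and that of *Esam* to -0.044, and the median of all genes moved to 0.27 and, for Day 14 over Day 3, 0.36. The *Postn* contrast on Day 7 became 0.22 with ranks after thinning. The cause was not tested. Of the other alternatives for sums and counts 122 stayed within the interval or 1.5 times the count, and for single genes 354 did and 24 moved. Leaving out the 10 fullest spots and splitting by depth were chosen after seeing the data. No paired analysis was possible because each day had 1 section and the shared replicate number is only a name. Depth limits *Kdr*, *Flt1* and *Emcn* most, and leaving out a replicate was not possible.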

Other observations

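The lymphatic list had a higher level in *Postn*-rich spots than in the others of each section. On the later days it consisted mostly of *Ccl21a*, with 894 of 1446 UMIs on Day 7 and 613 of 990 on Day 14. *Pdpn* gave 311 of these UMIs on Day 7 and 221 on Day 14. On Day 3 *Pdpn* was the largest part, with 232 of 454 UMIs, against 122 for *Ccl21a*. The ratio of *Pdpn* itself between these spots is not given here. On Day 14 the list was at 380 CPM in *Postn*-rich spots and 178 CPM in the others, a log2 ratio of 1.09 (0.89 to 1.29), against 0.35 (0.20 to 0.50) on Day 7 and 0.71 on Day 3. By distance on Day 7 it was not graded, at 379 CPM in *Postn*-rich spots, 299 CPM at 1 pitch, 441 CPM at over 1 to 2 pitches and 192 to 224 CPM farther out. *Ccl21a* itself had a Day 7 ratio of 0.14 (-0.059 to 0.34). On Day 7, *Flt4*, encoding the VEGF-C receptor VEGFR3, was at 25.8 and 13.8 CPM, *Mmrn1*, a multimerin of platelets and lymphatic endothelium, at 24.5 and 12.1 CPM and *Reln*, a secreted matrix protein, at 18.1 and 8.99 CPM.

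A few single genes of the other lists are given by place on Day 7. *Clec14a*, an endothelial adhesion receptor, had 31 UMIs in *Postn*-rich spots and 27 elsewhere, a log2 ratio of 1.10 (0.31 to 1.90), and *Tie1*, an endothelial receptor kinase, at 49.1 and 24.6 CPM. *Tek*, encoding the angiopoietin receptor TIE2, was at 15.5 and 28.4 CPM, a log2 ratio of -0.87 (-1.59 to -0.20). *Vegfa* was also lower in *Postn*-rich spots, at 40.7 and 64.0 CPM, with a ratio of -0.65 (-1.09 to -0.23). These genes were picked after their values were seen.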
